A study of Mus musculus with 38 samples.

Results

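MINT-ChIP, a chromatin immunoprecipitation that barcodes the chromatin of several samples before they are pooled, was used to map 2 histone marks in mouse skin while the transcription factor SOX9 was switched on. The H3K27ac list of week 2 (W2) held 29081 peaks on chromosomes 1 to 19, X and Y. Of these, 4658 (16.0%) shared no base with any H3K27ac peak called at day 0 (D0), week 1 (W1), week 6 (W6) or week 12 (W12). These W2-only peaks are described here. They were chosen by that absence, so the absence itself is not a result. The 5 H3K27ac lists held 156394 peaks in all.

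The skin samples came from male mice with K14rtTA and TRE-myc-Sox9, in which the basal cell promoter of keratin 14 drives the doxycycline (DOX) dependent activator of a MYC-tagged Sox9 transgene. D0, W1, W2 and W6 were back skins of mice given DOX from postnatal day 21 for 0, 1, 2 and 6 weeks. W12 came from newborn skin of the same genotype that had healed as a graft on immunocompromised Nude female hosts before 12 weeks of DOX, so that time and grafting cannot be told apart there. Epidermal stem cells (EpdSCs) were sorted as CD49f high, CD34 negative and Ly6A high, after cells with CD31, CD45, CD117 or CD140a were removed. Chromatin was cut to a high and a low degree with micrococcal nuclease, and H3K27ac, H3K4me1 and total H3 were each profiled in 12 of the 38 samples. The other 2 samples profiled H3K4me1 in cultured EpdSCs of newborn male K14rtTA pups, which carried lentiviral, DOX-inducible wild-type (WT) SOX9, SOX9 without its DNA-binding HMG box (noHMG) or SOX9 without its transactivation domain (noTA).

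Each mark and time had 1 list made from pooled replicates. The lists therefore hold no spread between replicates, and no difference between times could be tested. Intervals below are exact 95% intervals of a share, Newcombe intervals of a difference of shares or, for a median, order-statistic intervals, and they cover counting over peaks only. Neighbouring peaks are not independent, so the intervals are too narrow. The first W2 replicate was sequenced in the same libraries as W12 and told apart by barcode, which the lists give no means to check.

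H3K27ac marks the nucleosomes of active promoters and enhancers, and H3K4me1 marks enhancers more broadly, including those that are primed but not active. SOX9 bends DNA at short sites of the form ACAAT or ACAAA, and it can bind there as a pair in opposite orientation. In skin it is a regulator of hair follicle stem cells and of the outer root sheath, and it is silent in the adult interfollicular epidermis.

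The sequences below show what lay under the summits of W2-only peaks that carry the main points. All are 200 bp of the plus strand of GRCm38, centred on the summit. The first 3 had the highest scores. Capitals mark the letters of 5 motif families on either strand. NFI letters were searched too and were in none of these windows. For SOX factors these letters were ACAATGG or else the variant ACAAAGG. For AP1, the FOS and JUN family, the letters searched were TGANTCA. For RUNX factors the letters searched were TGTGGTT. For GATA factors the search used AGATAAG. For TEAD, the DNA-binding partners of YAP, the search used ACATTCC. In these 3 windows they mark a TEAD match in the first, none in the second and a SOX match in the third.
Frmd6 window, chr12:70795290-70795489: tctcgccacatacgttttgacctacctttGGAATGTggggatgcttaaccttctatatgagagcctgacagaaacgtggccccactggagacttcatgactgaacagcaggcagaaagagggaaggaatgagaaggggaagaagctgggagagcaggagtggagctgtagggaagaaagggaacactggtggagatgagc
Gpc4 window, chrX:52244074-52244273: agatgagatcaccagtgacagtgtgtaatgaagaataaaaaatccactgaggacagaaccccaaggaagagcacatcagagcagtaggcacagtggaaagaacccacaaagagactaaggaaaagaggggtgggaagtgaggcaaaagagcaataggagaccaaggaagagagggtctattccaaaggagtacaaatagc
Pard3 window, chr8:127491788-127491987: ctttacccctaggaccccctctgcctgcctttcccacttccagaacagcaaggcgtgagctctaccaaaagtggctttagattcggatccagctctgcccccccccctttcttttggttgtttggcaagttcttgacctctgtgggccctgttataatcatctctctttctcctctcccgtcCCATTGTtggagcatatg

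The next 3 were the highest-scored peaks with a SOX match within 100 bp of the summit, beside the third above. In the first of them a TG repeat fills the flank of the match.
Lrig3 window, chr10:126001319-126001518: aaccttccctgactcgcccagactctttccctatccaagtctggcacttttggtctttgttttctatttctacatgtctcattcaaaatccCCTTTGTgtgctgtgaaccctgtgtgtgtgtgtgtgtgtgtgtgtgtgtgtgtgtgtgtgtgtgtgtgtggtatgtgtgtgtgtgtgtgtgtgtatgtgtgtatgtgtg
Lpp window, chr16:24753546-24753745: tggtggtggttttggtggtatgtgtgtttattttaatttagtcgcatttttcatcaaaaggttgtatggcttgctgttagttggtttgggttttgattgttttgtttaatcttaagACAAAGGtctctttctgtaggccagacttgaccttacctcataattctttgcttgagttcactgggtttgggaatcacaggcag
Ect2 window, chr3:26921301-26921500: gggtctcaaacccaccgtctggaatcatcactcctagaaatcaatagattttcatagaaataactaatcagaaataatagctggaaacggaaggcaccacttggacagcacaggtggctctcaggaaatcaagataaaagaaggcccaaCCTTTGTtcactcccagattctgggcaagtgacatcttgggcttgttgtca

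The 2 peaks below were the strongest that were new in both marks at W2, with an H3K4me1 domain at W2 and none at D0 or W1 (a further peak of this kind, near Ect2, is shown above). The capitals in the first mark a RUNX match, and the second held none of the marked letters.
Cmah window, chr13:24397473-24397672: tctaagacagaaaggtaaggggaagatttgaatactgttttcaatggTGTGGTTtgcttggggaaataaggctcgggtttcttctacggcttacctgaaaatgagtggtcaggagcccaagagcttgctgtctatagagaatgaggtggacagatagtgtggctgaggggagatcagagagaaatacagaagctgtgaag
Mon1b window, chr8:113389231-113389430: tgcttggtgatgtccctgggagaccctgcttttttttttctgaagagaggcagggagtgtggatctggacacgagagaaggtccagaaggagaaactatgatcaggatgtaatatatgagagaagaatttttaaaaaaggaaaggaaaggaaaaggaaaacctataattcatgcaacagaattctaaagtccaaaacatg

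The last 3 held a SOX pair, ACAAT and ATTGT in opposite orientation with 3 to 5 bases between them, the arrangement known for SOX9 dimers. Capitals mark the whole pair.
Nek7 window, chr1:138530370-138530569: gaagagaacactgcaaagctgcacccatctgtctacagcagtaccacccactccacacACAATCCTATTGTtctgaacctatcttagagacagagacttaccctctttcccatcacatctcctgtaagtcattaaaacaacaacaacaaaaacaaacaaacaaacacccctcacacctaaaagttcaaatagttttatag
Tcf7l1 window, chr6:72795339-72795538: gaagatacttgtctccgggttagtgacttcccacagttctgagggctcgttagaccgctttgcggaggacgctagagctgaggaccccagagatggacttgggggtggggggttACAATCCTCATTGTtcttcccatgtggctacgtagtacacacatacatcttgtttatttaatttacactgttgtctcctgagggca
Pde4d window, chr13:109539164-109539363: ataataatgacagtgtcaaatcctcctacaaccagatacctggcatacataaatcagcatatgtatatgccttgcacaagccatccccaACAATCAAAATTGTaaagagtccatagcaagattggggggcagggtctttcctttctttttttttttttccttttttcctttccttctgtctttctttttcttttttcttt

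W2-only peaks were weak. Their fold enrichment over background, a linear ratio given by the authors, had a median of 4.21 (interval 4.21 to 4.63) and a range of 3.08 to 14.74. Peaks first called at W2 and called again at W6 or W12 (2755, referred to as found again) had a median of 4.91, and the 10186 peaks called at every time had a median of 9.82. The fold values fell on steps of whole fragments within 0.01 of a step for 95.8% of all W2 peaks and 88.7% of W2-only peaks, with a background pileup of 0.425 fragments, so that the depth behind these peaks could be read. The other peaks were rounded with the same background, so their pileups are approximate. The median pileup at the summit of a W2-only peak was 5 fragments, against 6 in found-again peaks and 13 in peaks called at every time.

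The share of W2 peaks that were W2-only was lower the stronger the peaks. It was 50% at a pileup of 4, 26% at 6, 11.7% at 8 and 0.427% at 12 or more. In 5 equal parts of the W2 list by score, from the lowest, W2-only peaks made up 42.2%, 22.8%, 11.8%, 3.08% and 0.172%. Only 34 W2-only peaks had a pileup of 12 or more. These values come from the list that chose the peaks and are given as a description. Most W2-only folds reached the 5th percentile of fold in each other list, though only 79.7% did so for W6. The 5th percentile of fold was 3.33 at D0, 3.08 at W1, 4.10 at W6 and 3.44 at W12, and 4595, 4657, 3713 and 4562 of the 4658 W2-only peaks reached it. The background pileup of those lists was 0.501, 0.299, 0.677 and 0.412 fragments, against 0.425 at W2. The same fold therefore stands for different pileups in different lists. The comparison does not show that these peaks would have been called at the other times. W2-only peaks were also narrow, with a median width of 439 bp against 580 bp in found-again peaks and 1443 bp in peaks called at every time.

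**Figure D1:**
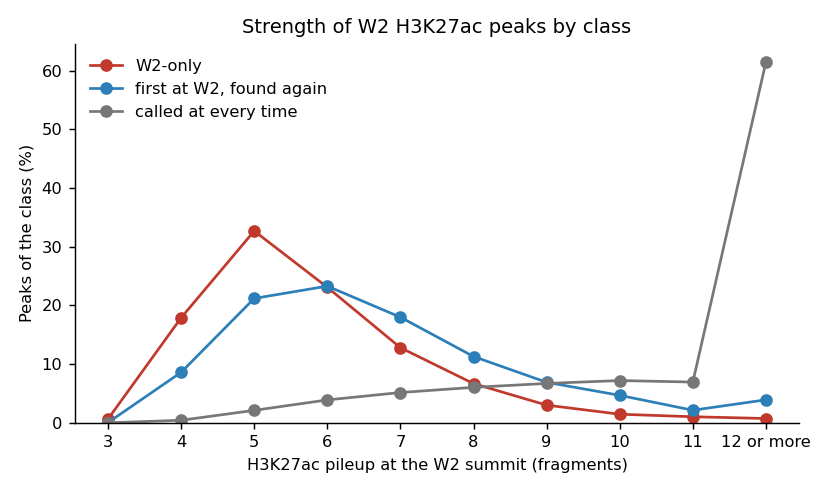
Percentage of each class of W2 H3K27ac peaks (vertical axis) at each pileup of fragments at the summit (horizontal axis), for 4658 W2-only peaks, 2755 found-again peaks and 10186 peaks called at every time. The W2-only curve is highest at 5 fragments with 32.7% of peaks, while 61.5% of the peaks called at every time had 12 or more.

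A list of peaks private to its time was not particular to W2. Such peaks were 20% of the D0 list, 20.8% of W1, 15.3% of W6 and 40.8% of W12. Many W2-only peaks stood beside a peak of another list. The nearest H3K27ac peak of another time was within 1000 bp for 1772 (38.0%) and within 10000 bp for 76.0%, with a median distance of 2058 bp. The remaining 1117 (24.0%) stood alone by more than 10000 bp, and 249 (5.35%) by more than 50000 bp. At the edge of the rule, 40 W2-only peaks touched or lay within 10 bp of a peak of another list, and 26 other W2 peaks overlapped one by 10 bp or less. Just inside were a peak of fold 6.32 at chr9:31213013-31213492, beside a W6 peak near Aplp2, and peaks of fold 4.91 near Oaz2 and Il20rb, each directly beside a D0 peak. Just outside, with an overlap of 1 bp, were peaks of fold 5.61 near Zpld1, and of fold 4.91 near Acot11 and Nr1d2.

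W2-only peaks lay mostly away from promoters. Their summits lay over 2500 bp from any annotated start site in 3923 of 4658 (84.2%, interval 83.1 to 85.3), against 74.8% of found-again peaks and 35.4% of peaks called at every time. Introns held 51.8%, intergenic sequence 30%, exons 2.34%, and 15.8% lay within 2500 bp of a start. The median distance to a start site was 13096 bp, against 10263 bp in found-again peaks and 487 bp in peaks called at every time. By chromosome, the W2-only share of W2 peaks ran from 12.9% on chromosome 7 to 19.5% on X, with the single peak on Y (of 16) left aside. GC content of the 300 bp around the summit had a median of 46.0%, against 47.7% and 55%, and repeat-masked bases made up 19.3%, against 17.5% and 10.5%.

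Most W2-only peaks lay in chromatin that carried H3K4me1 throughout, and of the 5 times the share was highest at W2. The share inside an H3K4me1 domain was 83.7% before induction (D0, interval 82.6 to 84.8) and 88.4% after 1 week of DOX. It reached 93.1% in the W2 list (92.3 to 93.8) and stood at 91% in the W6 list and 87.8% in the W12 list. Found-again peaks stood at 89.6%, 93.4%, 95.9%, 97.0% and 95.6%, and so stayed high after W2. At W12 the W2-only share was apart from theirs by -7.82 points (interval -9.02 to -6.59), and at W2 by -2.85 points (-3.87 to -1.79). The H3K4me1 domains covered 310, 264, 295, 273 and 270 Mb in order of time, so the share at D0 was lowest although that list covered most. H3K4me1 played no part in the rule but came from the same chromatin pools as H3K27ac.

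Peaks of like strength and position were more often in a D0 domain. All other W2 peaks stood at 96.0% at D0, and at 95% after reweighting to the fold classes and distal share of the W2-only peaks. For found-again peaks the reweighted value was 88.6%, and for the 676 peaks found at both W6 and W12 it was 90.1%. The W2-only peaks that stood alone by more than 10000 bp had 67% in a domain before induction and 84.6% in the W2 list, against 73.6%, 78.7% and 73.9% in the W1, W6 and W12 lists. Those within 1000 bp of another list had 93.8% at D0 and 98.4% at W2. Peaks private to another time also had their highest H3K4me1 share at that time. The D0-only peaks were at 93.0% at D0 and 80.3% at W2, W1-only peaks were at 87.3% at W1 and 80.4% at W12, and W6-only peaks were at 94.8% at W6 and 86.7% at D0. The 13856 W12-only peaks were low throughout, between 40.1% and 47.5%.

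**Figure D2:**
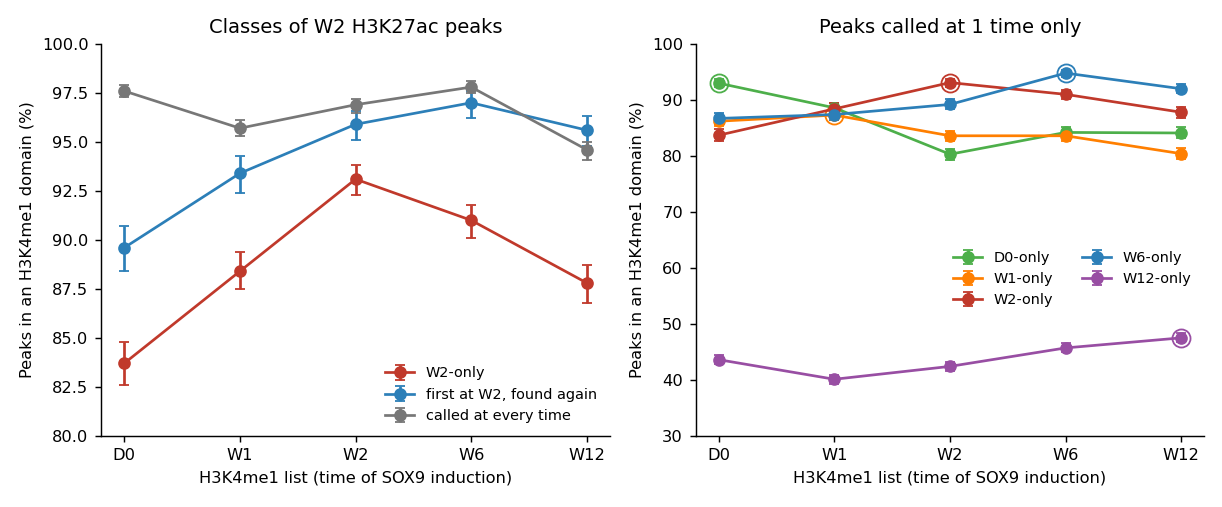
Percentage of H3K27ac peaks inside an H3K4me1 domain (vertical axes, cut at 80% and 30%) in each of the 5 H3K4me1 lists (horizontal axes), with exact 95% intervals as bars; classes of W2 peaks are on the left and peaks called at 1 time only on the right, where a ring marks the time of the peaks. The W2-only share rises from 83.7% at D0 to 93.1% at W2 and is 87.8% at W12, and each set on the right is highest at its own time.

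Over single peaks, 3560 W2-only peaks (76.4%) had an H3K4me1 domain at all 5 times and 174 (3.74%) had none at any. A domain present at W2 and missing at D0 was found over 526 W2-only peaks (11.3%), against 3.87% of all W2 peaks and 7.80% of found-again peaks, and the reverse change over 89 (1.91%). Over the peaks that had no domain at D0 and so could gain one, a base chosen after the values were seen, the shares were 69.3% of W2-only peaks, 65.1% of all W2 peaks and 75.2% of found-again peaks. The gain was mostly kept, but less often than in found-again peaks. Of the 526 peaks, 247 had domains at every time from W1 on and 82 at every time from W2 on. Of the 215 found-again peaks with a gain, 146 and 50 did. A domain at W2 alone lay over 72 W2-only peaks (1.55%). That last pattern was seen in 4 of 2755 found-again peaks (0.145%) and 36 of 24423 other W2 peaks (0.147%). A domain at W2 and none at D0 or W1 was found over 204 W2-only peaks (4.38%, interval 3.81 to 5.01), 2.14% of found-again peaks and 0.501% of peaks called at every time.

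The strongest 12 W2-only peaks had folds of 9.82 to 14.74, and all lay far from start sites, 7 in introns and 5 between genes. An H3K4me1 domain was present at all 5 times over 8 of them and at no time over 1. The remaining 3 lacked it at D0 and had it from W1 on. The peak with the highest score was chr12:70795186-70795956, with a pileup of 20 fragments and a fold of 14.74. It lay 30124 bp from the nearest protein-coding start site, that of Frmd6, a FERM-domain protein tied to Hippo signalling. H3K4me1 domains covered 79.8% of its bases at W2 and all of them at the other times, and a W12 H3K27ac peak stood 369 bp away. Next came chrX:52243407-52244758, with a fold of 13.33 and 78922 bp from Gpc4, a cell-surface heparan sulphate proteoglycan. A W1 peak stood 160 bp from it. The peak chr8:127491070-127492088, also of fold 13.33, lay in an intron of Pard3, which encodes a cell polarity protein. D0 domains touched 8.64% of its bases, W1 domains 87.1% and W2 domains 100%, and the nearest H3K27ac peak of another time was 9835 bp away.

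H3K4me1 differed in time among the strongest peaks. The peak chr9:101272000-101272734 (fold 11.23), 20596 bp from Ppp2r3a, a regulatory subunit of protein phosphatase 2A, had no domain at D0 and full cover from W1 on. So did chr17:62507401-62508096 (fold 9.82), between genes 373344 bp from Efna5, an ephrin ligand. At chr7:117700416-117701169 (fold 11.23), between genes 319677 bp from Xylt1, no base was covered at D0, 51.1% of bases were in the W1 domains, and the whole peak was covered thereafter. The peak chr13:43277671-43278141 (fold 11.93), in an intron of Gfod1, had no H3K4me1 domain at any time, and 100% of its summit window was repeat-masked. Within 1000 bp of another list lay 7 of the 12.

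The 5 strongest peaks that were new in both marks had folds of 8.42 to 9.82. The first lay at chr13:24397401-24397870 in an intron of Cmah, a sialic acid hydroxylase, with H3K4me1 over the whole peak in the W2 list, over 85.1% of it in the W6 list and over none of it at D0, W1 or W12. The peak chr8:113388835-113389473 (fold 9.04), nearest to Mon1b, and the peak chr4:82327535-82328049 (fold 8.42), in an exon of Nfib, had a domain at W2 alone. Nfib encodes a nuclear factor I protein of hair follicle stem cells. Near Tns3, a tensin of focal adhesions, chr11:8088782-8089430 (fold 8.42) had domains at W2 and W12 only and no H3K27ac peak of another time within 282426 bp. The peak chr3:26921206-26921643 (fold 8.42), nearest to Ect2, which acts in cell division, lay in an intron of Spata16 and kept its domain at W6 and W12. Its summit window, printed above, held a SOX match, and it was the only peak of the 5 with one. In culture the Ect2 and Mon1b peaks had a domain with WT SOX9 alone. The Cmah and Tns3 peaks had a domain in every culture list, that without DOX included, and the Nfib peak had none.

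In cultured EpdSCs the W2-only peaks were less often in an H3K4me1 domain than found-again peaks and peaks called at every time, and more often with WT SOX9 than with either mutant. Peaks private to other times were low too. Without DOX and with WT, D0-only peaks were at 48.9% and 44.4%, W1-only peaks at 43.9% and 48.3%, W6-only peaks at 55.5% and 57.9%, and W12-only peaks at 27.8% and 28.4%. Without DOX, 2135 of 4658 (45.8%, interval 44.4 to 47.3) lay in a domain, against 62.9% of found-again peaks and 68.9% of peaks called at every time. With DOX the W2-only share was 53.3% for WT, 44.3% for noHMG and 45.4% for noTA. The culture conditions were read from the names of the lists. The culture domains covered 120 Mb without DOX and 133 Mb, 120 Mb and 133 Mb with WT, noHMG and noTA, so WT and noTA were alike in extent. Found-again peaks were at 70.5%, 59.1% and 61.1% in the same order. Reweighted to the fold and distal share of W2-only peaks, found-again peaks were at 61.8% without DOX and 69.0% with WT. Each condition had 1 list, and no replicate spread was at hand.

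**Figure D3:**
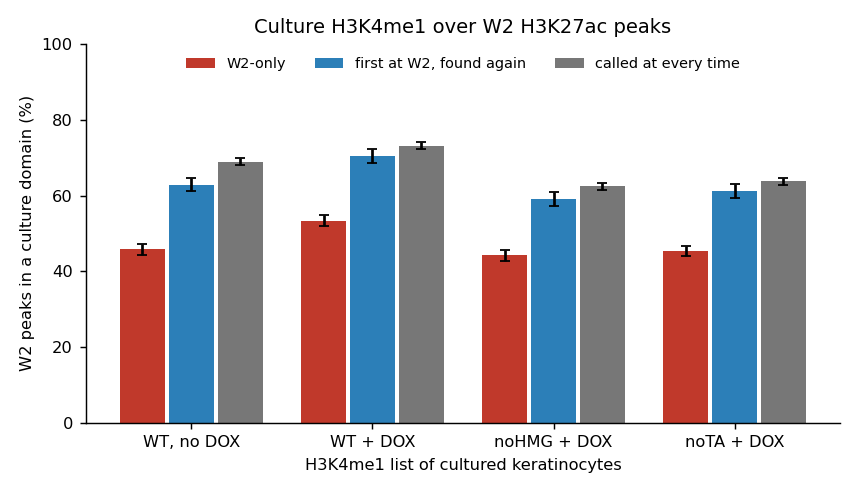
Percentage of W2 H3K27ac peaks inside an H3K4me1 domain of cultured EpdSCs (vertical axis) without DOX and with DOX for WT, noHMG and noTA SOX9 (horizontal axis), by class, with exact 95% intervals. Of the 3 classes W2-only peaks are lowest in every list, and all are highest with WT and DOX.

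A culture domain with WT and DOX that was missing without DOX was found over 677 W2-only peaks (14.5%, interval 13.5 to 15.6), against 11.4% of all W2 peaks. The same change was found over 252 (5.41%) with noHMG and 343 (7.36%) with noTA, and the reverse change with WT over 327 (7.02%). Found-again peaks had the WT change in 13.4%, which differed from the W2-only share by 1.10 points (interval -0.545 to 2.71). The WT change was found in 6.26% of D0-only, 11.8% of W1-only, 10.5% of W6-only and 6.73% of W12-only peaks. Across the 4 lists, 1607 W2-only peaks (34.5%) had no domain, 1502 (32.2%) had one in all 4, and 462 (9.92%) had one with WT and DOX alone, against 8.78% of found-again peaks, 5.30% of peaks called at every time, and 2.88% and 1.12% of W2-only peaks with noTA or noHMG alone. The change could be seen only over peaks without a domain in culture before DOX. Among these, chosen as a base after the values were seen, the order was the other way, with 677 of 2523 W2-only peaks (26.8%, interval 25.1 to 28.6), 31.3% of all W2 peaks and 36.2% of found-again peaks. On that base W2-only peaks had the change in 9.99% with noHMG and 13.6% with noTA, and D0-only, W1-only, W6-only and W12-only peaks had the WT change in 12.2%, 21.1%, 23.6% and 9.32%. W2-only peaks without H3K4me1 in skin at D0 had it in 178 of 623 (28.6%, interval 25.1 to 32.3) and those with it in 499 of 1900 (26.3%, 24.3 to 28.3).

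The 5 strongest W2-only peaks with the WT change had folds of 9.12 to 9.82. They included the Efna5 peak above, and chr10:24648137-24648523 (fold 9.82) in an intron of Enpp1, 52580 bp from Ccn2, the matrix-associated growth factor that YAP induces. H3K4me1 in skin was absent there at D0 and covered the whole peak from W1 on, but the culture domain was present with noHMG and noTA too (folds 3.37 and 2.49, against 3.78 with WT). The peak chr16:29734500-29735122 (fold 9.82), between genes 155276 bp from Opa1, had skin H3K4me1 at all times and a culture domain with WT alone (fold 4.24). The remaining peaks were chr1:66616944-66618642 in an intron of Unc80 and chr17:35721718-35722638 near the collagen receptor Ddr1, both of fold 9.12 with skin H3K4me1 at all times. Neither was particular to WT in culture. The Unc80 peak also had a domain with noHMG (fold 3.45, against 2.60 with WT). The Ddr1 peak also had domains with noHMG and noTA (folds 2.76 and 2.56, against 2.84 with WT).

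SOX letters were about as common at W2-only summits as in W2 peaks of like base composition. Of 4658 windows of 300 bp, 519 held ACAATGG or ACAAAGG (11.1%, interval 10.3 to 12.1), against 10.2% of windows 2000 bp to either side and 11.5% at found-again summits. All other W2 peaks had 9.25%, and 11% after reweighting to the GC content and distal share of W2-only peaks. Peaks called at every time had 8.07%, or 11.1% after that reweighting. AP1 letters were found in 11.4% of W2-only windows (interval 10.5 to 12.3) against 8.98% in their flanks, and in 11.4% of found-again windows against 8.11%. AP1 was the family with the widest gap over its flanks, in percentage points, of the 21 searched. D0-only peaks had AP1 letters in 10.7% against 8.73%. TAATTA, a homeobox core, was less common at W2-only summits than beside them, 6.78% against 8.64%. The ETS letters CCGGAAG were found in 1.07% of W2-only windows, 2.07% of found-again windows and 9.0% of those called at every time, most of which lay near start sites. For RUNX, GATA, TEAD, TCF/LEF, FOX, IRF and p63 the flank share lay within the interval of the W2-only share. It lay below the interval for 2 rarer families. C/EBP letters were in 55 windows (1.18%, interval 0.891 to 1.53, against 0.741% in flanks). CTCF letters were in 19 (0.408%, 0.246 to 0.636, against 0.225%). Found-again windows had C/EBP letters in 1.27% against 0.907% in their flanks, and CTCF letters in 0.290% of both. All other W2 windows had CTCF letters in 0.434% against 0.346%. The intervals are not adjusted for the 21 families.

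**Figure D4:**
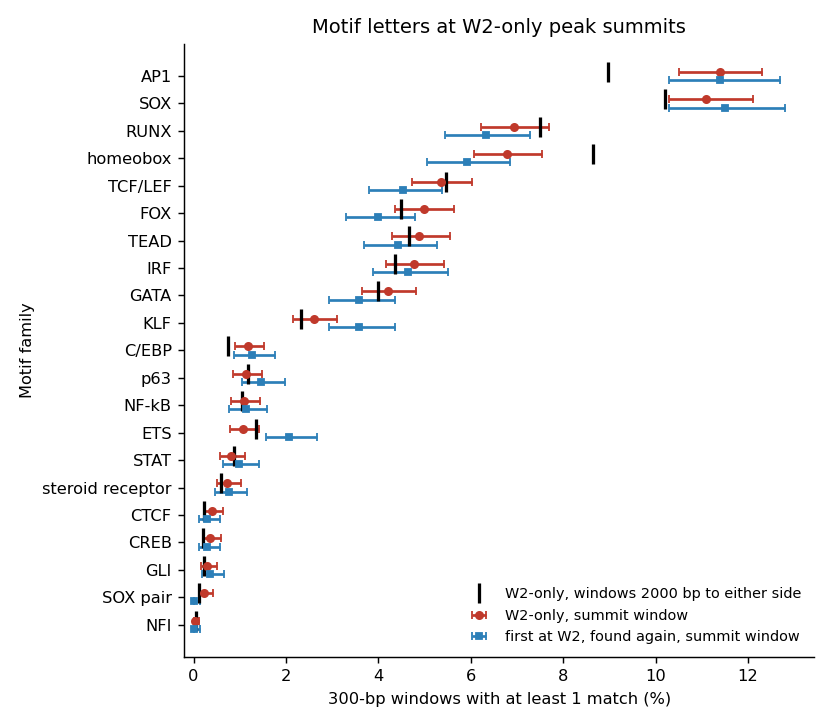
Percentage of 300-bp windows with at least 1 match (horizontal axis) for 21 motif families (vertical axis), at W2-only summits (circles) and found-again summits (squares) with exact 95% intervals, and in windows 2000 bp to either side of W2-only summits (black ticks). AP1 stands above its flanks at 11.4% against 8.98%, and SOX is at 11.1% against 10.2%.

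SOX pairs were rare. They were found in 11 W2-only windows (0.236%, interval 0.118 to 0.422), in 0.118% of the flanks, in 0 of 2755 found-again windows, which allows a share of up to 0.109% at 3 counts and 0.134% by the exact interval, and in 14 of 24423 other W2 windows (0.0573%). The 11 peaks, which were looked up after their values were seen, had folds of 3.51 to 6.11. They included the peaks of the windows printed above, near Nek7, Tcf7l1 and Pde4d, and peaks near Lpar3 and Igf1. Of all 11, 4 had a culture domain with WT and DOX alone, 3 had one in all 4 lists, 1 had none, and the other 3 had further patterns. The pair near Tcf7l1, a TCF repressor of hair follicle stem cells, had a spacer of 4 bp and lay 6185 bp from its start site, in H3K4me1 at all 5 times and in all 4 culture lists. Within W2-only peaks, SOX letters were found in 14.7% (interval 11.6 to 18.3) of the 462 with a culture domain under WT and DOX alone and in 9.85% (8.39 to 11.5) of the 1502 with all 4, a difference of 4.87 points (1.51 to 8.66). AP1 ran the other way, with 9.31% and 14%, a difference of -4.74 points (-7.71 to -1.31). The 2 groups also differed in median GC content (45.0% and 47.3%) and in distal share (88.7% and 80.6%). In their flanks, SOX letters were at 11.3% and 9.75%, and AP1 letters at 9.09% and 7.99%. The part of base composition and position in these differences was not tested. The SOX difference was -0.590 points (-4.44 to 4.28) in found-again peaks and 0.193 points (-1.27 to 1.83) in all other W2 peaks, whereas the AP1 difference was -5.67 and -3.70 points in those classes. The contrast was chosen after its values were seen. These groups were 2 of 11 into which the members were divided for 6 motif families, and the intervals are not adjusted for that.

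The genes nearest to W2-only peaks included several regulators of the hair follicle. Each peak was assigned to the protein-coding gene with the nearest start site, which gave 2867 genes. Of these, 1942 had 1 W2-only peak and 106 had 5 or more. The list of hair follicle stem cell and outer root sheath genes (30 genes) had 311 W2 peaks, of which 87 (28.0%, interval 23.1 to 33.3) were W2-only, beside 16.0% of all W2 peaks. Among distal peaks alone the share was 28.8%, beside 22.9% of all distal W2 peaks, and without Nfib, which held 15 of the 87, it was 28.2%. W2-only peaks lay nearest to 23 of the 30 genes, beside 2867 of the 10887 genes nearest to any W2 peak. The 311 W2 peaks of the list lay at 28 genes, and a gene with more W2 peaks can more easily hold a W2-only one. The H3K27ac values of the list come from the contrast of the rule and are a description. In the same list, 13% of D0 peaks, 26.9% of W1 peaks, 21.1% of W6 peaks and 25.2% of W12 peaks were private to their time, against 20%, 20.8%, 15.3% and 40.8% of all peaks of those lists. An H3K4me1 domain lay over 83.9% of the 87 at D0 and 96.6% (interval 90.3 to 99.3) at W2, beside 83.7% and 93.1% of all W2-only peaks. The strongest of the 87 were nearest to Nfib (fold 8.42, 177469 bp from a start) and Sox9 (7.02, 134660 bp). Of the same fold as the Sox9 peak was one at Tbx1 (7.02), a T-box factor of hair follicle stem cells. The Tbx1 peak, chr16:18587385-18587937, lay 791 bp from a start and had full H3K4me1 cover at D0, W1, W6 and W12 but none at W2.

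The list of cell cycle and growth genes had 35 W2-only peaks of 110 (31.8%, interval 23.3 to 41.4), beside 16.0% of all W2 peaks. They lay nearest to 13 of the 20 genes, beside 2867 of the 10887 genes nearest to any W2 peak. Myc held 13 of the 35 peaks, and without Myc the share was 31.0%. Among the strongest peaks was that nearest to Fgfr1, a fibroblast growth factor receptor (fold 8.42, 2453 bp from a start). Another was nearest to Ccnd1, the cyclin D1 of the G1 phase (fold 7.02, 117008 bp from a start). Private peaks made up 15.4% of this list's peaks at D0, 28.3% at W1, 17.8% at W6 and 29.2% at W12, against 20%, 20.8%, 15.3% and 40.8% of all peaks. Among distal peaks the W2-only share of the list was 37.8%, beside 22.9%.

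The other lists had W2-only shares whose intervals held the 16.0% of all W2 peaks. Among distal peaks their shares ran from 11.1% to 18.8%, below the 22.9% of all distal peaks, and the intervals of the epidermal list (17.4%, 13.1 to 22.4) and the Hedgehog and WNT list (11.1%, 5.46 to 19.5) did not reach it. Epidermal identity and differentiation genes had 50 of 324 (15.4%). The strongest lay nearest to Jag1, a NOTCH ligand (fold 8.42, 399545 bp from a start). Next were Trp63, the p63 factor of stratified epithelia (7.02, 97753 bp), and Krt5, the basal keratin (6.32, 5347 bp). Gata3, Grhl2, Egfr and Ivl had the same fold as Krt5. Without Trp63 the share was 12.6%. Hedgehog and WNT genes had 14 of 120 (11.7%), led by Sfrp1, a secreted WNT inhibitor (fold 7.72, 542 bp from a start). Next were Gli2, an effector of Hedgehog signalling (7.02, 76674 bp), and Lrp6, a WNT co-receptor (4.91, 72676 bp). Of those 14, Gli2 held 6, and without it the share was 7.55% (interval 3.31 to 14.3). RUNX and AP1 factors had 14 of 96 (14.6%), led by Fosl2, Runx1 and Atf3 with folds of 6.32, 4.91 and 4.89. These 3 peaks lay 22533, 269460 and 15403 bp from a start. TGF-beta, BMP and EGF genes had 15 of 113 (13.3%), led by the activin subunit Inhba (fold 5.61, 451089 bp from a start). Next were the EGF receptor ligand Tgfa (4.91, 38796 bp) and the receptor Tgfbr2 (4.91, 57044 bp), with Smad3 at the same fold. Wound, stress and inflammation genes had 13 of 90 (14.4%), where Nfkbia, Socs3 and Il1a each had a fold of 5.61. Those peaks lay 32730, 29225 and 28601 bp from a start. Adhesion, matrix and cytoskeleton genes had 32 of 220 (14.5%). The strongest lay nearest to the basement membrane collagen Col4a1 (fold 9.12), 70042 bp from a start and in an intron of Col4a2. Next were the hyaluronan receptor Cd44 (7.02, 21374 bp) and Col18a1 (6.32, 9777 bp). Tnc and Dst had the same fold as Col18a1.

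Lhx2, a LIM homeobox factor of hair follicle stem cells, had no H3K27ac peak assigned to it at D0, W1, W6 or W12 and 5 at W2. It was singled out after its values were seen. The gene lies at chr2:38339281-38369733 on the plus strand. Of the 5 peaks, 3 lay inside it at chr2:38349905-38350802 (fold 4.91), chr2:38351896-38352672 (4.21) and chr2:38353190-38353691 (4.91), and 2 lay downstream at chr2:38376674-38377417 (4.21) and chr2:38379163-38379644 (5.61). No H3K27ac peak of another time came nearer than 62276 bp to any of them. H3K4me1 domains covered 4 of the 5 at every time, D0 included, and the remaining peak at D0, W1 and W2. Each rested on a pileup of 5 to 7 fragments.

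Bnc2, which encodes the zinc finger protein basonuclin 2, was nearest to more W2-only peaks than any other gene. It lies at chr4:84275095-84675275 on the minus strand and had 16 W2-only peaks among 23 at W2, against 8 peaks at D0, 13 at W1, 6 at W6 and 8 at W12. Peaks private to their time were 4, 7, 1 and 5 at D0, W1, W6 and W12. Of the 16, 15 lay inside the gene, with folds of 4.21 to 6.32. All 16 were in an H3K4me1 domain at W2, 12 of them at all 5 times, and none held the SOX letters. The W2-only peaks count in the W2 total alone, so these totals describe the choice of peaks and carry no test.

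Nfib followed with 15 W2-only peaks among 56 at W2, against 45, 37, 40 and 25 at D0, W1, W6 and W12, of which 14 lay inside the gene. Sox9 itself had 14 among 33, against 18, 24, 22 and 19 at D0, W1, W6 and W12. Private peaks at Sox9 were not particular to W2, with 2, 13, 9 and 6 at those other times. None of the 14 W2-only peaks lay in the gene at chr11:112782224-112787760. They stood 74640 to 582677 bp from its start, 3 upstream and 11 downstream, with folds of 3.51 to 7.02, and 13 of them had H3K4me1 at all 5 times. Trp63 had 14 among 39, of which 12 lay inside the gene and all 14 had H3K4me1 at D0. Lpp, which encodes a LIM protein of focal adhesions and also lies on chromosome 16, had 13 among 28, and 10 of its 13 had a culture domain with WT and DOX against 5 without DOX. These counts were 6 and 5 at Efna5, 4 and 3 at Bnc2, and 2 and 1 at Nfib. They ran the other way at Trp63 (5 and 8), Myc (6 and 8), Sox9 (6 and 7) and Mrtfa (6 and 7). Over all W2-only peaks the shares were 53.3% and 45.8%. Myc had 13 among 39, all 80863 bp or more from its start. Efna5 had 11 among 30, with no H3K4me1 at D0 over 5. Those 5 lay outside the gene, 373344 to 1670043 bp from its start, and the 5 peaks inside the gene had H3K4me1 at all times. Mrtfa, an actin-regulated partner of serum response factor, had 10 among 21, with H3K4me1 at all times over all 10. Peaks private to W1 were 9 of 37 at Nfib, 4 of 29 at Trp63 and 10 of 25 at Lpp. They were 5 of 33 at Myc, 10 of 24 at Efna5 and 5 of 20 at Mrtfa. Tnc, the matrix protein tenascin C, singled out after its values were seen, had 6 among 13, against 2, 4, 3 and 7 peaks at D0, W1, W6 and W12.

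**Figure D5:**
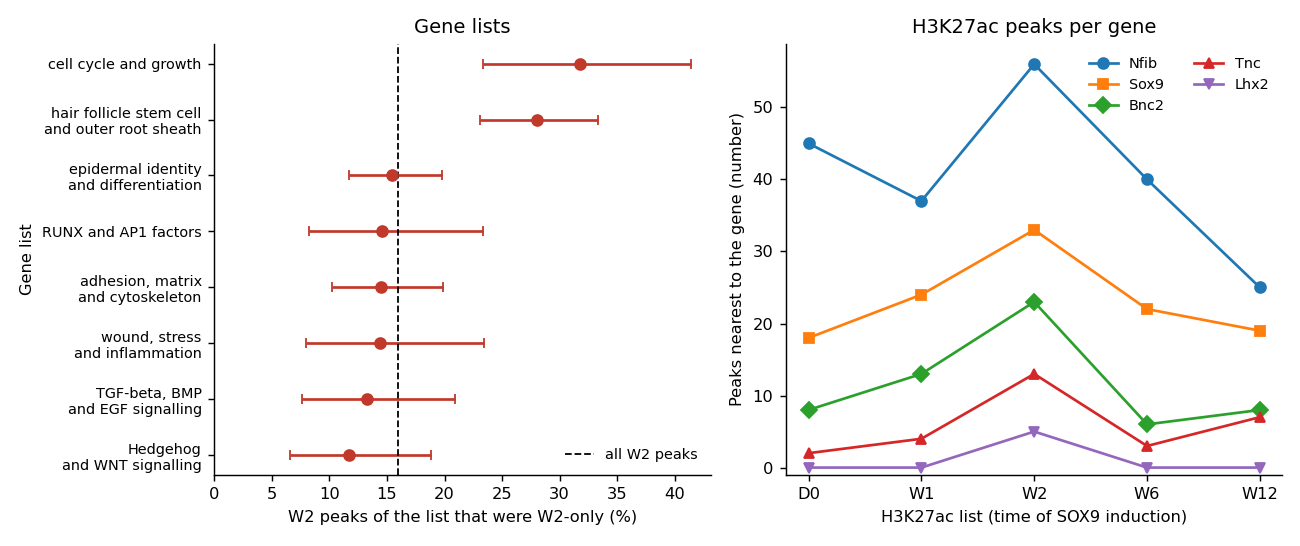
Left, percentage of the W2 peaks of each gene list that were W2-only (horizontal axis, exact 95% intervals) with the 16.0% of all W2 peaks as a dashed line; right, number of H3K27ac peaks assigned to 5 genes (vertical axis) in each list (horizontal axis). The cell cycle list is at 31.8% and the hair follicle list at 28.0%, and Lhx2 has 5 peaks at W2 and 0 at the other times.

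Marker genes were read to check the sorted cells. All 7 markers of basal keratinocytes had a W2 peak within 10000 bp of the gene, with 60 peaks in all and 52 to 58 at the other times. Immune markers had 1 W2 peak (1 to 3 at the other times), with 6 of 7 genes at 0, Ptprc, Cd74, Cd3e and Lyz2 among them. Endothelial markers had 11, all at Pecam1, with Cdh5, Kdr, Tek and Erg at 0. Fibroblast markers had 2, both at Col1a1, and melanocyte markers had 7 at Pmel and Mitf, with Kit, Dct, Tyr and Sox10 at 0. Of the W2-only peaks, 0 lay within 10000 bp of immune, endothelial or fibroblast markers and 1 within that distance of a melanocyte marker, Mitf. By nearest start site instead, both of the 2 W2 peaks of fibroblast markers were W2-only, at Dpt, and 3 of 13 of melanocyte markers were, at Dct and Mitf, with 0 of 2 and 0 of 10 for immune and endothelial markers. The markers of CD34-positive hair follicle bulge cells, which the sort removes, had 6 W2 peaks at Cd34, Krt15 and Lgr5 and 4, 3, 1 and 4 at D0, W1, W6 and W12. Of the W2-only peaks, 1 lay near Cd34 and 1 near Lgr5. Their part in the W2-only peaks of hair follicle genes was not tested. In pooled cells, more cells with a mark and more mark per cell cannot be told apart.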

How the data were processed

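Peak and domain lists of H3K27ac and H3K4me1 in sorted EpdSCs, and of H3K4me1 in cultured EpdSCs, were analysed on mm10 (GRCm38). Per the labels and the methods of the study, reads were trimmed with Skewer and aligned with Bowtie2 2.2.9, duplicates were marked with Picard, H3K27ac peaks were called with MACS2 2.1.1, and H3K4me1 domains were called with epic2, with SICER 0.0.36 also named. Caller settings and controls were not given in the sources used here. Each list pooled the replicates, so read depth per sample is unknown. The H3K27ac and culture lists deposited by the authors give a score, a fold enrichment as a linear ratio, and -log10 of p and q. The H3K4me1 lists deposited by the authors give a p-value for each domain in bins of 200 bp. The 14 deposited barcode lists were not used.

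Peaks on chromosomes 1 to 19, X and Y were kept, which set aside 2 W2 peaks on the mitochondrial genome. Overlap meant at least 1 bp. Start sites and genes came from GENCODE M21 and sequence from GRCm38.p6, the same build. A peak was distal over 2500 bp from any start site and was assigned to the nearest protein-coding start site. Shares carry exact Clopper-Pearson 95% intervals, and medians carry order-statistic intervals. Shares of compared peaks were reweighted to the 10 strata of fold class and distal status of the W2-only peaks, or to GC content and distal status for motifs. The 5 fold classes were cut at quantiles and were unequal in size because many folds were tied. Motifs were searched on both strands in 300 bp around each summit and around points 2000 bp to either side. Pileups were rounded to whole fragments from the fold values and 1 background pileup per list. This was done for all peaks, and those more than 0.01 from a step have approximate pileups. Computation used Python 3.11.15, numpy 2.4.6, pandas 2.3.3 and scipy 1.17.1, and the scripts were tested on simulated data.

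The members, the gene and marker lists and the motifs were chosen with earlier results of these data known. Peaks named are the 12 with the highest score, the 5 highest new in both marks and the 5 highest with a WT culture change. Genes named are the 8 nearest to most W2-only peaks and, in each list, the 3 with the strongest W2-only peak. Further genes tied in fold with these 3 are given beside them. Exceptions are stated in the text. In the cell cycle list, 1 of the 3 is not reported here. No test across samples was possible. Alternatives for the overlap, the strength, the lists, the chromosomes, the cover, the distal limit and the motif window were tried. Changes of H3K4me1 were also counted over the peaks that could show them, a base chosen after seeing the data.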

Additional observations from a re-analysis of the deposited data

How the results depend on the processing

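With an overlap of 50% of the shorter interval, the share of W2-only peaks in an H3K4me1 domain was 85.6% at D0 and 94.1% at W2, the share in a culture domain without DOX 48.4% and the distal share 82.8%. When a peak of another list within 1000 bp counted as overlap, 2886 peaks were left, with 77.5%, 89.8%, 43.9% and 87.3% in the same order. Of the W2 peaks above the median score, 301 were W2-only, with a median fold of 7.28, shares of 80.7%, 95.7% and 49.2% in the D0, W2 and culture domains, and SOX letters in 9.30%. Without the W1 list, the list with the lowest background pileup, the median fold was 4.91 and those domain shares were 86.3%, 94.5% and 48.2%. With at least 50% of the bases in a domain, the D0 share was 81.7% and the culture share 36.9%. The distal share was 92.4% at a limit of 1000 bp and 57.9% at 10000 bp. SOX letters were found in 7.92% of 200-bp windows, in 19% of 500-bp windows and, as ACAATG or ACAAAG, in 38.3%. The cause of these differences was not tested. Leaving out the W12 list (5196 peaks) or chromosomes X and Y (4572 peaks) moved none of these 7 values beyond its interval or, for the count, beyond 1.5 times. The D0 share was below the W2 share under every alternative tried for both.

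A median pileup of 5 fragments limits what a single W2-only peak shows, and its absence from another list does not show that the mark was absent there. No paired analysis was possible because each list pools the replicates.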
